A study of Mus musculus with 5 samples.

Results

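Genes that respond to p53 and genes that repair damaged DNA were followed in mouse common myeloid progenitors after deletion of Mll1 with Cre recombinase. The 38 genes were taken by name out of the 31626 genes in the deposited files, and all 38 were found. They form 2 groups, 23 p53 regulators and targets and 15 damage repair genes. Members of the cell death and CDK inhibitor families were not part of the first group.

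The compared groups were 2 libraries of Mll1 -/- cells, transduced with Cre, and 3 control libraries of Mll1 flox/flox cells, transduced with a control, all sorted at day 7. Every library came from C57Bl/6 progenitors transformed with the retrovirus MSCV-MN1-IRES-GFP, which expresses the leukaemia gene MN1 with GFP, and grown in M3234 methylcellulose medium with FBS, IL3, IL6 and SCF. The sources used here do not give the age of the mice, the sorting marker, the promoter that drives Cre or whether replicates were separate mice or cultures. The p-values therefore measure only the spread between these libraries, which may be technical. No library of Cre-treated cells with intact Mll1 was analysed here, so exposure to Cre and loss of Mll1 cannot be told apart. Since the libraries are bulk samples, fewer cells of a type and less RNA per cell cannot be told apart either.

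The transcription factor p53 is held low by the ubiquitin ligase Mdm2 and its partner Mdm4. When the kinases Atm and Atr sense broken or stalled DNA, they act on p53 directly and through Chek1 and Chek2, and p53 then switches on genes of cell cycle arrest, repair, metabolism and cell death, Mdm2 among them. Cre can itself cut DNA at sites that resemble loxP, which is why p53 targets are of interest in cells given Cre. Many repair genes are transcribed mainly in dividing cells, under E2F factors.

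Values are FPKM, fragments scaled by transcript length and by the mapped fragments of the library, so levels may be compared between genes. The absolute number of reads is unknown. The worth of 1 read, taken from low values, was 0.98 to 1.02 of that in control 1 in the other 4 libraries. Of the 8 myeloid progenitor markers in the files, 7 were at 48.2 FPKM or more in every library and Csf1r was at 0.183 to 1.96 FPKM. Mpo, Fcgr3 and Gata2 rose and Cd34 fell, the last at 216 and 212 FPKM in the knockouts and 685, 600 and 587 FPKM in the controls. Of 11 lymphoid markers in the files, 10 were below 1 FPKM in every library, and Cd3g, Cd8a, Pax5 and Ncr1 were at 0. Summed FPKM ran from 1412 to 1443 in the knockouts and 716 to 972 in the controls for mast and basophil markers. For erythroid markers it ran from 27.9 to 33.0 in the knockouts and 11.9 to 63.6 in the controls. Of 7 erythroid markers tested, Alas2, Klf1 and Car1 rose, beside 3.82% of all genes. Car1 reached 1 FPKM only in the knockouts, and Alas2 only there and in control 1. These 2 genes were thus tested only because of their knockout values, and no support is drawn from their calls. Control 1 stood apart from the other controls. The 12 neutrophil markers in the files summed to 20717 to 22450 FPKM in the knockouts and to 822 to 6433 FPKM in the controls, the highest control value being that of control 1. S100a8 and S100a9 made up most of each sum, at 11794 and 10186 FPKM in knockout 1. Of 10 tested, only Lcn2 was called, upward, and Ltf, Ngp and Camp were highest of all libraries in control 1. No marker of this list was at 0 in every library, but Mmp9 did not exceed 0.0503 FPKM. The targeted gene, Mll1, stood at 6.22 and 5.32 FPKM in the knockouts and at 9.67, 7.28 and 7.19 FPKM in the controls. Both knockouts lay below every control, with a log2 change of -0.41 and p = 0.1 in a two-sided exact permutation test on the absolute difference, the smallest value that 10 splits allow (limma adjusted p = 0.158). The labels do not say which exons are floxed, and FPKM summed over all exons can miss their loss.

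Promoters were read from RefSeq (build GRCm38.p6, 250 bases before to 50 after a start) for 31 of the 38 genes, 18 of the p53 group and 13 of the repair group, with 40 starts in all. They were searched on both strands, with no mismatch, for the p53 decamer, the short palindrome that makes up a p53 response element when it occurs as a pair. At least 1 decamer lay in 11 of the 26 promoters of the p53 group (42.3%) and in 1 of the 14 promoters of the repair group (7.14%), against 8.36% of all 32851 promoters. A pair of decamers no more than 13 bases apart was found in 0 of the 40 member promoters, against 0.0731% of all promoters. The E2F-type motif GCGGGAA was found in 0 of 26 promoters of the p53 group, 6 of 14 of the repair group (42.9%) and 4.60% of all promoters. These are matches of letters, not measured binding. The first set shows the decamer, in capitals, upstream of the p53 feedback gene Mdm2, the arrest gene Ccng1, the nuclease gene Aen, the phosphatase gene Ppm1d and the sestrin gene Sesn1, read in the direction of the gene. For Aen and Sesn1 it lies before the second of 2 listed starts.
Mdm2 (minus strand, chr10:117710900-117710979): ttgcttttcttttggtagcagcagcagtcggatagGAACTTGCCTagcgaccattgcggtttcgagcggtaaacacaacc
Ccng1 (minus strand, chr11:40755427-40755506): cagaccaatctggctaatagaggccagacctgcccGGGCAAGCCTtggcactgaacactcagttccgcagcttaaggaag
Aen (plus strand, chr7:78895902-78895981): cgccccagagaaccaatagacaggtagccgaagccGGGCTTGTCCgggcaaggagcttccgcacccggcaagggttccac
Ppm1d (plus strand, chr11:85311087-85311166): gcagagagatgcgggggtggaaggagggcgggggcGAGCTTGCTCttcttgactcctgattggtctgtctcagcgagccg
Sesn1 (plus strand, chr10:41887231-41887310): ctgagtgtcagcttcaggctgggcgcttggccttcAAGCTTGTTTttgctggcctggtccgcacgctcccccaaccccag

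The second set shows, in capitals, GCGGGAA upstream of the recombination gene Brca2, the checkpoint kinase gene Chek2 and the Ku subunit gene Xrcc6. Gtse1, the one p53 group gene that rose (below), is shown with 2 CCAAT boxes that lie on opposite strands. They are 2 of the 3 at the first of its 2 listed starts. A p53 decamer lies just after the second listed start of Gtse1 and is not shown. CCAAT occurred in 17 of 26 promoters of the p53 group, in 10 of 14 of the repair group and in 37.4% of all promoters. None of the sites shown overlaps a site of another motif searched.
Brca2 (plus strand, chr5:150522416-150522495): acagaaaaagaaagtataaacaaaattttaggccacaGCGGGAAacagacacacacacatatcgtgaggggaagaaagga
Chek2 (plus strand, chr5:110839794-110839873): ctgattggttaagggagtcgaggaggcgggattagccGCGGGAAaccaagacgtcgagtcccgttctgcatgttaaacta
Xrcc6 (plus strand, chr15:82016286-82016365): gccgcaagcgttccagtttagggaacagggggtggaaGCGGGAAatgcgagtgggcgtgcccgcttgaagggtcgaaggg
Gtse1 (plus strand, chr15:85859583-85859662): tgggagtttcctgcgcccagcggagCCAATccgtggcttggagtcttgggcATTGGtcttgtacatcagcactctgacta

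Calls in the p53 group went in both directions in the knockout cells. Of its 23 genes, 21 passed the filter of at least 1 FPKM in at least 2 libraries. Gtse1 rose, and Mdm4 and Sesn1 fell, at an adjusted p under 0.05 in limma over all 11780 genes tested. That is 4.76% of the members up and 9.52% down, beside a background of 3.82% of all genes that rose and 5.97% that fell. Without control 1, the members called were 6 up and 3 down. Without control 2 or control 3 none was called in limma, with 4 and 5 at an unadjusted p under 0.05. Over all 11780 genes those fits called 45 up and 66 down, and 70 up and 134 down. They had 2908 and 3101 genes at an unadjusted p under 0.05. With so few calls over all genes, the lack of calls says little about the members. Changes of the 21 members ran from -0.55 to 0.63 on the log2(FPKM + 1) scale, with 11 above and 10 below 0. Their median was 0.034, and the median of all genes tested was -0.028. Of all 11780 genes, 5480 had changes above 0 and 6300 below.

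**Figure D1:**
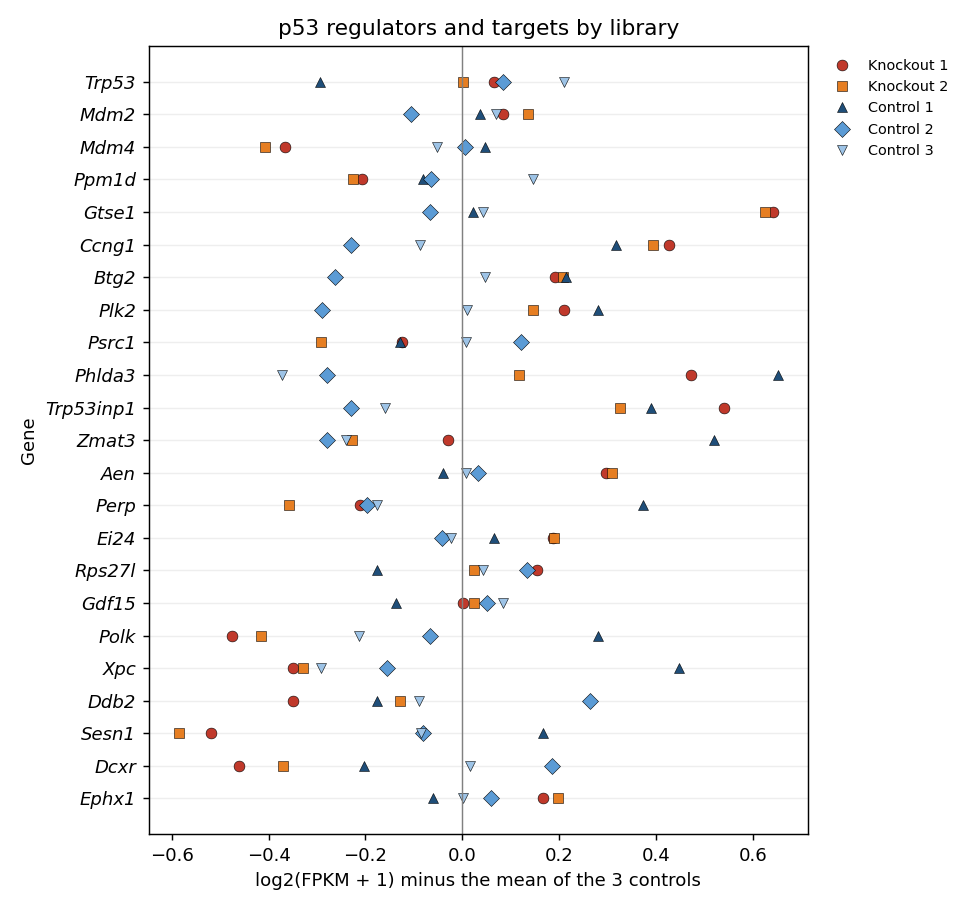
Level of each of the 23 p53 regulators and targets in each library, as log2(FPKM + 1) minus the mean of the 3 controls (horizontal axis, genes in rows ordered by role). Gtse1 lies to the right in both knockouts and Mdm4 and Sesn1 to the left, and the control 1 triangle often stands apart from controls 2 and 3, by 0.98 for Phlda3.

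Among the regulators of p53, only Mdm4 was called. Trp53, which encodes p53, stood at 122 and 117 FPKM in the knockouts and at 94.96, 124 and 135 FPKM in the controls. The knockout values lay inside the range of the controls (adjusted p = 0.911, limma, 95% interval of the log2 change -0.39 to 0.45). Mdm2, the target through which p53 limits itself, stood at 60.5 and 62.7 FPKM in the knockouts and 58.5, 52.9 and 59.9 FPKM in the controls. Both knockouts lay just above the highest control, and the log2 change of 0.11 was not called (adjusted p = 0.437, 95% interval -0.11 to 0.32). Mdm4, whose product binds and restrains p53, fell to 18.0 and 17.5 FPKM in the knockouts, against 24.3, 23.6 and 22.6 FPKM in the controls. The groups did not overlap, and the log2 change was -0.39 ± 0.072 (SE, limma adjusted p = 0.0402). The FPKM ratio of Mdm4 to Mdm2 was 0.297 and 0.278 in the knockouts and 0.414, 0.445 and 0.377 in the controls. Ppm1d, the phosphatase that shuts down the damage signal, stood at 13.6 and 13.4 FPKM in the knockouts, below the controls at 14.9, 15.1 and 17.7 FPKM, without passing the test (adjusted p = 0.223).

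Among arrest and cell cycle targets, only Gtse1, whose product binds p53 in G2 cells, was called. It rose to 30.9 and 30.6 FPKM in the knockouts, against 19.8, 18.6 and 20.1 FPKM in the controls, which is 1.58-fold on the means. Its log2 change was 0.63 ± 0.073 (SE), the smallest p of the 36 members tested (limma adjusted p = 0.0162). Ccng1, the cyclin G gene that p53 induces strongly in many tissues, stood at 61.5 and 60.0 FPKM in the knockouts and at 56.9, 38.6 and 42.7 FPKM in the controls. Both knockouts were above every control, but the change of 0.41 was smaller than the spread of the controls (0.55) and was not called (adjusted p = 0.195, 95% interval -0.036 to 0.86). Btg2 (0.20) and Plk2 (0.18), genes of an antiproliferative factor and of a polo-like kinase, had positive log2 changes and Psrc1 (-0.21), a spindle gene, a negative one, with the groups overlapping in all 3.

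Targets tied to survival and cell death were not called in the fit to all libraries. Phlda3, an inhibitor of Akt, stood at 10.7 and 8.14 FPKM in the knockouts and at 12.2, 5.94 and 5.51 FPKM in the controls. The highest of the 5 values was that of control 1 (adjusted p = 0.617, 95% interval -0.59 to 1.19). Trp53inp1, a stress gene of autophagy and death, stood at 10.9 and 9.22 FPKM in the knockouts and 9.67, 5.95 and 6.30 FPKM in the controls. Control 1 lay between the knockouts, and the other controls below them. Aen, a nuclease of apoptosis, stood at 17.5 and 17.7 FPKM in the knockouts, above all controls at 13.7, 14.4 and 14.2 FPKM, and missed the threshold (log2 change 0.30, adjusted p = 0.0622). Ei24, an endoplasmic reticulum gene, was also above every control, with a log2 change of 0.19 (adjusted p = 0.158); 6.66% of its exon bases overlap an antisense gene. Perp, a membrane protein gene, had a log2 change of -0.28 and Zmat3, an RNA-binding protein gene, one of -0.13, and neither was called. Rps27l, the most abundant member at 319.9 ± 20.8 FPKM in the knockouts (SD, n = 2) and 302 ± 32.5 FPKM in the controls (SD, n = 3), had an adjusted p of 0.671 in limma.

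Of the metabolic and secreted targets, Sesn1 was called and the others were not. Sesn1, a sestrin that restrains mTORC1 signalling under stress, fell to 9.12 and 8.67 FPKM in the knockouts, against 15.3, 12.7 and 12.7 FPKM in the controls (log2 change -0.55 ± 0.11, SE, limma adjusted p = 0.0448). The groups did not overlap. Dcxr, a carbonyl reductase gene, stood at 10.2 and 10.9 FPKM in the knockouts, below the controls at 12.4, 16.6 and 14.6 FPKM, without passing the test (adjusted p = 0.114). Gdf15, a secreted stress cytokine that is a sensitive p53 target, was near the bottom of the range, at 0.336 and 0.357 FPKM in the knockouts and 0.214, 0.383 and 0.414 FPKM in the controls. Ephx1, an epoxide hydrolase gene, stood at 0.572 and 0.607 FPKM in the knockouts and at 0.343, 0.461 and 0.402 FPKM in the controls. Neither of these genes passed the filter, and no fold is read from such low values. The repair genes that p53 controls had negative changes and were not called. Polk, a translesion polymerase, had a log2 change of -0.45, and the damage recognition genes Xpc and Ddb2 had changes of -0.34 and -0.24. In Ddb2, 23.8% of the exon bases overlap Acp2 on the opposite strand, and whether strand was used in the counting is not given.

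Each member was also set against the spread of the controls. Both knockouts lay above every control for 5 of 21 members (23.8%) and below every control for 7 (33.3%), beside 22.9% and 29.4% of all genes tested, so the shares are near the background. The change of the means exceeded the range of the 3 controls for 6 of 21 members, beside 37.3% of all genes. Control 1 was the highest of the controls for 12 of the 21 members (57.1%) and the highest of all 5 libraries for 9 (42.9%), beside 33.2% and 23.2% of all genes tested. The 9 were Mdm4, Phlda3, Zmat3, Polk, Plk2, Btg2, Perp, Sesn1 and Xpc. Of the 10 neutrophil markers tested, 8 were also highest among the controls in that library, Mmp8 and Csf3r were lowest there, and their part in these values was not tested. Without control 1, Ccng1 (log2 change 0.57), Trp53inp1 (0.63), Phlda3 (0.62), Aen (0.28) and Ei24 (0.22) joined Gtse1 among the calls upward, and Dcxr (-0.52) joined Mdm4 and Sesn1 among those downward. These are 28.6% and 14.3% of the members, beside 11.9% of all genes that rose and 18.0% that fell in that fit. Control 1 was the highest control for Ccng1, Trp53inp1, Phlda3 and Ei24 and the lowest for Dcxr. Leaving it out moves their changes further from 0 by construction, and no support is drawn from these shares.

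**Figure D2:**
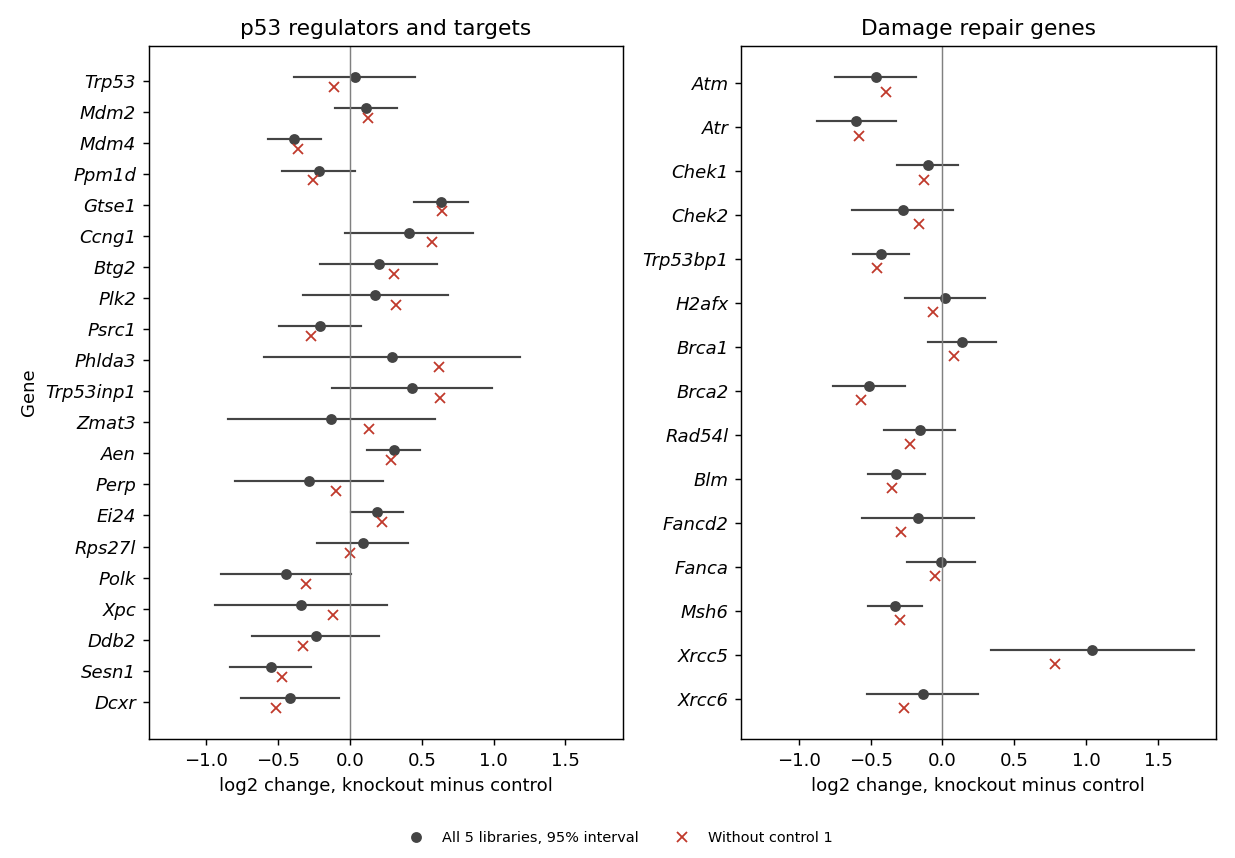
Log2 change, knockout minus control, of the 36 members tested. Dots give the fit to all 5 libraries with its 95% interval, and crosses the change without control 1. Phlda3 and Zmat3 have the widest intervals of the p53 group, and the Zmat3 cross lies on the other side of 0.

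A list of 40 further p53 target symbols was used, of which 35 were in the files and 31 tested. The death receptor gene Tnfrsf10b rose, at 2.52 and 2.66 FPKM in the knockouts and 1.11, 1.33 and 1.28 FPKM in the controls (limma adjusted p = 0.0365). The peptide transporter gene Tap1 fell, at 12.6 and 11.3 FPKM in the knockouts and 20.9, 28.4 and 22.8 FPKM in the controls (adjusted p = 0.0283). Cdkn1a, the CDK inhibitor that carries the p53 arrest, stood at 112 and 103 FPKM in the knockouts, above the controls at 94.6, 76.5 and 77.5 FPKM, without passing the test (log2 change 0.38, adjusted p = 0.114, 95% interval 0.068 to 0.69). The 1 gene called upward and the 1 downward are each 3.23% of the 31, beside 3.82% of all genes that rose and 5.97% that fell. The median of the 31 was 0.051. Without control 1, 8 of the 31 were called upward, Cdkn1a among them, and 7 downward, beside 11.9% of all genes that rose and 18.0% that fell. Without control 2 or control 3 none was called in limma, with 7 and 6 at an unadjusted p under 0.05, in fits that called few genes at all.

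Of the 15 damage repair genes, 3 fell in the knockout cells. All 15 passed the filter. Atr, Brca2 and Trp53bp1 fell and none rose in limma (1 had an unadjusted p under 0.05 upward and 6 downward), which is 20% of the members down, beside the 5.97% of all genes given above. Both knockouts lay below every control for 9 of 15 (60.0%) and above every control for 2, beside the 29.4% and 22.9% of all genes given above. Over all 11780 genes, 1470 had an unadjusted p under 0.05 in limma upward and 2041 downward. The median change was -0.17, beside -0.028 over all genes tested. Of the 15 changes 12 were negative, beside 6300 of all 11780 genes. Without control 1, 6 fell (40.0%) and 1 rose, beside 18.0% of all genes that fell and 11.9% that rose in that fit. Without control 2 or control 3 none was called in limma, with 7 in each fit at an unadjusted p under 0.05. As given above, those fits called few genes at all, so the lack of calls says little about these members.

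**Figure D3:**
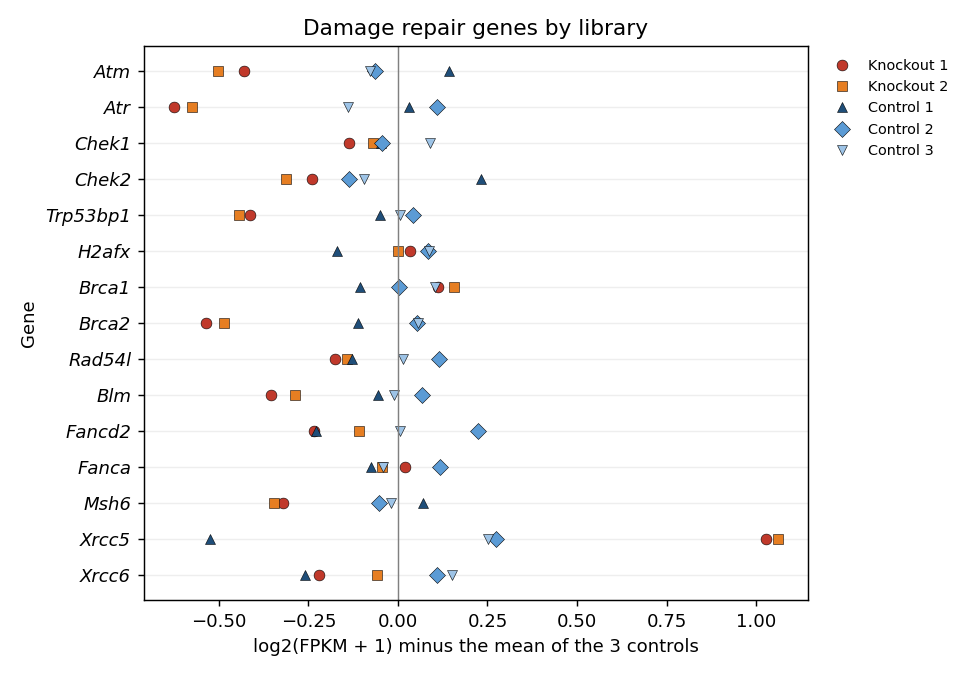
Level of each of the 15 damage repair genes in each library, as log2(FPKM + 1) minus the mean of the 3 controls (horizontal axis, genes in rows ordered by role). Both knockouts lie left of every control for 9 genes, by most for Atr (log2 change -0.60), and far to the right for Xrcc5 (1.04).

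Of the damage kinases, Atr was called and Atm, Chek1 and Chek2 were not. Atr, which senses stalled replication forks, fell to 5.65 and 5.90 FPKM in the knockouts, against 9.48, 10.1 and 8.31 FPKM in the controls (log2 change -0.60 ± 0.11, SE, limma adjusted p = 0.0367). Atm, which senses double-strand breaks, stood at 4.71 and 4.44 FPKM in the knockouts and 7.49, 6.37 and 6.29 FPKM in the controls. Its groups did not overlap either, but its adjusted p was 0.0625 (log2 change -0.47). The effector kinase genes Chek1 and Chek2 were not called. Chek1 stood at 14.9 and 15.7 FPKM in the knockouts and 16.0, 16.0 and 17.7 FPKM in the controls, with a 95% interval of the log2 change from -0.32 to 0.11. Chek2 had a log2 change of -0.28, and its highest value, 15.4 FPKM, was that of control 1. Whether the changes of the sensor and effector kinases differ was not tested.

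Of the factors that gather on chromatin at breaks, one was called. Trp53bp1, which protects broken ends from resection, fell to 10.8 and 10.5 FPKM in the knockouts, against 14.2, 15.2 and 14.7 FPKM in the controls (log2 change -0.43 ± 0.075, SE, limma adjusted p = 0.0350). In this gene 15% of the exon bases overlap Tubgcp4 on the opposite strand. H2afx, the histone variant phosphorylated around breaks, stood at 146 and 143 FPKM in the knockouts and at 127, 152 and 152 FPKM in the controls. The knockouts lay inside the range of the controls, with a log2 change of 0.017 (adjusted p = 0.931, 95% interval -0.26 to 0.29).

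In homologous recombination, which copies an intact sister, Brca2, a tumour suppressor of this pathway, fell and Brca1 was not called. Brca2 stood at 4.71 and 4.92 FPKM in the knockouts and at 6.67, 7.61 and 7.62 FPKM in the controls (log2 change -0.51 ± 0.098, SE, limma adjusted p = 0.0419). Brca1 stood at 13.5 and 14.0 FPKM in the knockouts and at 11.5, 12.5 and 13.4 FPKM in the controls, with a log2 change of 0.13 that was not called (adjusted p = 0.388). The helicase gene Blm was below every control, at 16.9 and 17.8 FPKM in the knockouts and 21.04, 22.98 and 21.7 FPKM in the controls, and missed the threshold (adjusted p = 0.0649). Rad54l, a DNA motor protein gene of the same pathway, had a log2 change of -0.16. The Fanconi anaemia genes of crosslink repair, Fancd2 (-0.17) and Fanca (-0.012), overlapped between the groups.

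Mismatch repair and end joining gave the remaining values. Msh6, a mismatch recognition subunit, stood at 26.1 and 25.7 FPKM in the knockouts, below the controls at 34.6, 31.7 and 32.5 FPKM (log2 change -0.33, adjusted p = 0.0549). The Ku subunit genes Xrcc5 and Xrcc6, whose products join as a pair on broken ends, differed in position relative to the controls. Xrcc5 stood at 6.72 and 6.90 FPKM in the knockouts and at 1.63, 3.58 and 3.51 FPKM in the controls. The groups did not overlap, control 1 was the lowest, and the log2 change of 1.04 ± 0.28 (SE) was not called (adjusted p = 0.0780). Xrcc6 stood at 42.3 and 47.4 FPKM in the knockouts and 41.1, 53.4 and 55.0 FPKM in the controls. The FPKM ratio of Xrcc5 to Xrcc6 was thus 0.159 and 0.145 in the knockouts and 0.0397, 0.0671 and 0.0638 in the controls. Xrcc5 was far below its partner in every library, and whether its deposited level covers the whole gene was not tested. No other annotated transcript matched Xrcc5 over at least 200 bases at 95% identity. Among the 38 genes only Trp53 and H2afx had such a match, each to 1 pseudogene, and their values are uncertain to that extent. Exons of Rad54l (15.4%), Fanca (10.5%), H2afx (10.2%), Xrcc6 (7.69%) and Atr (5.03%) also overlap genes on the opposite strand.

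The 3 repair genes that fell have long transcripts. The longest annotated transcripts of Brca2, Trp53bp1 and Atr have 10724, 9621 and 8102 bases, that of Atm, which was not called, has 9819 bases, and 6 of the 15 repair genes lie in the longest of 5 length classes of like size, from 5039 bases up. In that class the median log2 change over all 2240 genes was -0.079, and 8.53% fell. In the second shortest class the median was 0.0069 and 5.50% fell. In the shortest class the median was -0.018 and 3.70% fell. In the middle and second longest classes the medians were -0.0052 and -0.031, and 5.98% and 6.70% fell. The share that fell thus rose from each class to the next longer one. The median fell steadily only from the second shortest class on. Brca1, at 6572 bases, had a positive change in the longest class. After a loess correction of each library for transcript length and GC content, chosen after seeing the data, none of the 15 repair genes fell in limma (7 had an unadjusted p under 0.05) and Xrcc5 rose, beside 7.62% of all genes that rose and 7.25% that fell. Their median change was then -0.13, and the log2 changes of Atr, Brca2 and Trp53bp1 were -0.50, -0.40 and -0.33. The adjusted p in that limma fit was 0.0516 for Atr, 0.0955 for Brca2 and 0.0529 for Trp53bp1. It was 0.0494 for Xrcc5, so Atr, Trp53bp1 and Xrcc5 lay close to the threshold on either side. In the p53 group Gtse1 and Aen rose and Mdm4 and Dcxr fell in that fit. The split of all calls was 854 up and 812 down after the correction and 450 up and 703 down before it, and it was 597 up and 621 down after median-ratio scaling.

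**Figure D4:**
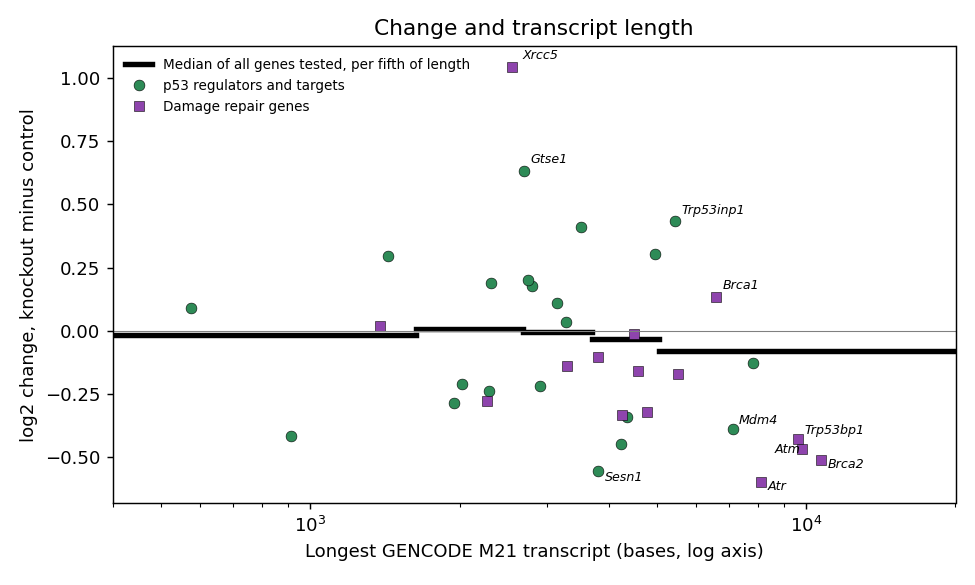
Log2 change, knockout minus control, of the 36 members tested against the length of their longest annotated transcript (log axis). Black bars give the median of all genes tested in each of 5 length classes, the outer bars being cut at the edges of the axis. Atr, Brca2, Atm and Trp53bp1 lie at the long end, below the median of -0.079 of their class.

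Of a list of 71 other repair symbols, 66 were in the files and 65 tested. Rbbp8, which starts the resection of broken ends, fell to 33.6 and 35.3 FPKM in the knockouts, against 45.3, 49.2 and 53.3 FPKM in the controls (limma adjusted p = 0.0397). Prkdc, the kinase recruited by Ku, fell to 3.67 and 3.46 FPKM, against 6.20, 5.70 and 5.05 FPKM in the controls (adjusted p = 0.0498). These 2 genes are 3.08% of the 65, beside 5.97% of all genes that fell. None of the 65 rose in limma (4 had an unadjusted p under 0.05 upward and 13 downward). Over all 11780 genes, 1470 had such a p upward and 2041 downward. The median of the 65 was -0.12, with 42 changes below 0, beside 6300 of all 11780 genes. Without control 1, 15 of the 65 fell and 3 rose, beside 18.0% and 11.9% of all genes. Without control 2 or control 3 none was called in limma, with 10 and 11 at an unadjusted p under 0.05, in fits that called few genes at all. Of the proliferation markers, none of 23 tested was called in limma. An unadjusted p under 0.05 was reached by 6 of the 23, all upward, beside 1470 of all 11780 genes upward. The median change of these markers was 0.083. They summed to 2419 and 2525 FPKM in the knockouts and 2032 to 2416 FPKM in the controls. Without control 1, 3 of them rose and 4 fell, beside 11.9% and 18.0% of all genes. Without control 3, 1 rose, in a fit with 70 genes up. After median-ratio scaling 4 rose and 0 fell, with 597 genes up in all, and after quantile normalization 1 rose and 1 fell. After the length and GC correction 6 rose (26.1%) and 0 fell, beside 7.62% of all genes that rose. The part of the proliferation markers in the repair values was not tested.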

How the data were processed

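RNA was sequenced from 5 libraries, 2 knockout and 3 control. Per the submitters' processing notes, CASAVA 1.8.2, GSNAP, SAMtools and Cuffdiff were used with mouse build mm9, and the authors deposited 1 FPKM value per Ensembl gene. The sources used here name no annotation, strand setting, treatment of reads with several matches or Cuffdiff version. Absolute depth is unknown, which leaves the counting error of each value unknown. In 16 genes a library held 999999999, taken as a failed estimate, and these genes were left out; no member was among them.

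The 11780 genes that reached 1 FPKM in 2 or more of the 5 libraries were tested with limma 3.58.1 (R 4.3.3) on log2(FPKM + 1), two-sided, with an intensity trend and Benjamini-Hochberg adjustment over all of them, and called at an adjusted p under 0.05. Changes are knockout minus control on that scale, where low genes appear to change less than they do. The step was tested on simulated data, where most log2 changes of 0.5 were missed, so a gene not called may still have changed. Fewer genes were changed in the simulation than were called here, so the share missed in these data may differ. The members and lists were chosen with earlier results of these data known. Values per library are given for members called, for members with groups that do not overlap and a change of at least 0.5, and for a fixed set, and most others follow from their role. Of the other lists, the called genes and Cdkn1a are named; 1 other gene that the rule names is not reported here. Transcript length, GC content, overlaps and copies (blastn 2.17.0) come from GENCODE M21, which held 26622 of the gene IDs, and promoters from RefSeq. Alternatives covered pseudocount, filter, scaling, the trend, omission of each library, a replicate block and, added after seeing the data, length and GC content.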

Additional observations from a re-analysis of the deposited data

How the results depend on the processing

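The 6 members called (Gtse1, Mdm4, Sesn1, Atr, Brca2, Trp53bp1) kept their call and direction with a pseudocount of 0.1 or 5 and without control 1. Of these, 5 kept it with a mean of at least 5 FPKM and without the intensity trend, 4 after median-ratio scaling, 3 after quantile normalization, 2 (Gtse1 and Mdm4) after the length and GC correction and 1 (Gtse1) with no filter. The cause of each loss was not tested. With no filter, 497 genes were called in all, 1 in the p53 group and 0 in the repair group in limma (7 of its members had an unadjusted p under 0.05). After the length and GC correction 1 repair gene was called. Leaving out 1 library gave 0 to 3516 calls over all genes, 0 to 9 in the p53 group and 0 to 7 in the repair group; the highest count of each was without control 1, and 0 over all genes was without knockout 2, with 1669 at an unadjusted p under 0.05 in limma. Same-numbered libraries had deviations from their group means that correlated at 0.037 and 0.012 over genes. The deviations of the knockouts from their mean mirror each other. Both correlations thus rest on the same knockout contrast and cannot show whether the numbers pair the libraries. With the replicate number as a block, 55 genes were called in all (12 up, 43 down), 0 in the p53 group and 0 in the repair group in limma, with 3 and 6 members at an unadjusted p under 0.05. Mll1 was called under no alternative.

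Members that changed sign were not called before or after. Fanca (leaving out 1 library, -0.050 to 0.048) had a log2 change of 0.024 after median-ratio scaling, 0.041 after quantile normalization, 0.048 without control 2, 0.021 without knockout 2 and 0.012 after the length and GC correction. Trp53 had -0.031 and H2afx -0.045 after quantile normalization. Leaving out 1 library gave -0.11 to 0.14 for Trp53, -0.068 to 0.061 for H2afx and -0.27 to 0.13 for Zmat3, the negative end of the first pair and the positive end of Zmat3 being without control 1. The files give no read counts, so counting error could not be separated from the spread between libraries.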

Other observations

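Promoter letters and changes can be set side by side, as a description with no test. The 10 p53 group genes with a p53 decamer in a listed promoter were all tested and had a median log2 change of 0.099, from -0.55 (Sesn1) to 0.63 (Gtse1), with 7 above 0. The 6 tested genes of the 8 without one had a median of -0.015, with 3 above 0. All 6 repair genes with GCGGGAA (Atm, Brca2, Chek1, Chek2, Msh6 and Xrcc6) had negative log2 changes, with a median of -0.30. The 7 without it had a median of -0.16, from -0.60 (Atr) to 1.04 (Xrcc5), with 2 above 0. Of those with it 1 was called downward, and of those without it 2.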
